A study of Komagataella phaffii GS115 with 3 samples.

Results

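Transcript levels after exposure of Komagataella phaffii GS115 to hydrogen peroxide (H2O2, an oxidant) were compared with those of the untreated strain. The comparison took 2 of the 3 RNA-seq libraries of the series, 1 of H2O2-treated GS115 and 1 of GS115 in regular culture; the other library, from hmt-deficient GS115 in regular culture, is used only for its levels, beside those of some genes and gene sets. GS115 is a histidine-auxotrophic strain of this methylotrophic yeast (formerly Pichia pastoris) and is widely used as a protein expression host. Both libraries compared come from the same strain. The sources used here do not give the peroxide dose, the exposure time, the medium, the carbon source or the growth phase of either culture, and any of these that differed between them cannot be told apart from the peroxide. With 1 library a side no difference has a replicate check, and no test between the conditions was made.

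Levels are FPKM, which divide a gene's fragments by its length and by the library's fragment total, as the authors deposited them for 5040 genes. A gene entered the comparison when it reached 10 FPKM in at least 1 of the libraries, which 4964 genes did. Each gene's log2 ratio of H2O2-treated to untreated, with 1 FPKM added to both, was then centred on the median gene, whose log2 ratio was -0.38. A centred value of 1 therefore means a gene stood 2-fold higher relative to the median gene after H2O2. Adding 1 FPKM understates the change of low genes. Fold differences before centring are ratios of fragments recovered from the FPKM values and rounded to whole numbers, scaled by the library totals. Their exact 95% intervals cover counting error only.

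Methylotrophic yeasts oxidise methanol in peroxisomes, where alcohol oxidase makes formaldehyde and hydrogen peroxide and catalase removes the peroxide. Formaldehyde is either oxidised to carbon dioxide by formaldehyde and formate dehydrogenases or assimilated into sugar phosphates by dihydroxyacetone synthase. These genes, together with those for high-affinity sugar uptake, glycerol use, the glyoxylate cycle and gluconeogenesis, are known to be held low by ample glucose, while glycolytic genes carry sugar carbon to pyruvate. Yeasts meet added peroxide with catalase, peroxiredoxins, glutathione enzymes and the transcription factor Yap1.

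The H2O2-treated library had very high transcripts for all 11 genes of the glycolysis list, which includes pyruvate decarboxylase. It had far lower transcripts than the untreated library for formate dehydrogenase, the glucose transporter Gth1 and the methanol regulator Mit1. Of the 4964 genes, 767 (15.5%) stood 2-fold or more above the median gene and 743 (15%) 2-fold or more below it. At 4-fold 4.09% were higher and 4.65% lower, and at 16-fold 28 (0.564%) were higher and 43 (0.866%) lower. The central 50% of genes lay between -0.63 and 0.63 on the centred log2 scale, and the central 90% between -1.93 and 1.83. Before centring, 441 genes passed 2-fold upward and 1283 downward, so that 25.6% of those past 2-fold were higher, against 50.8% after centring.

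**Figure D1:**
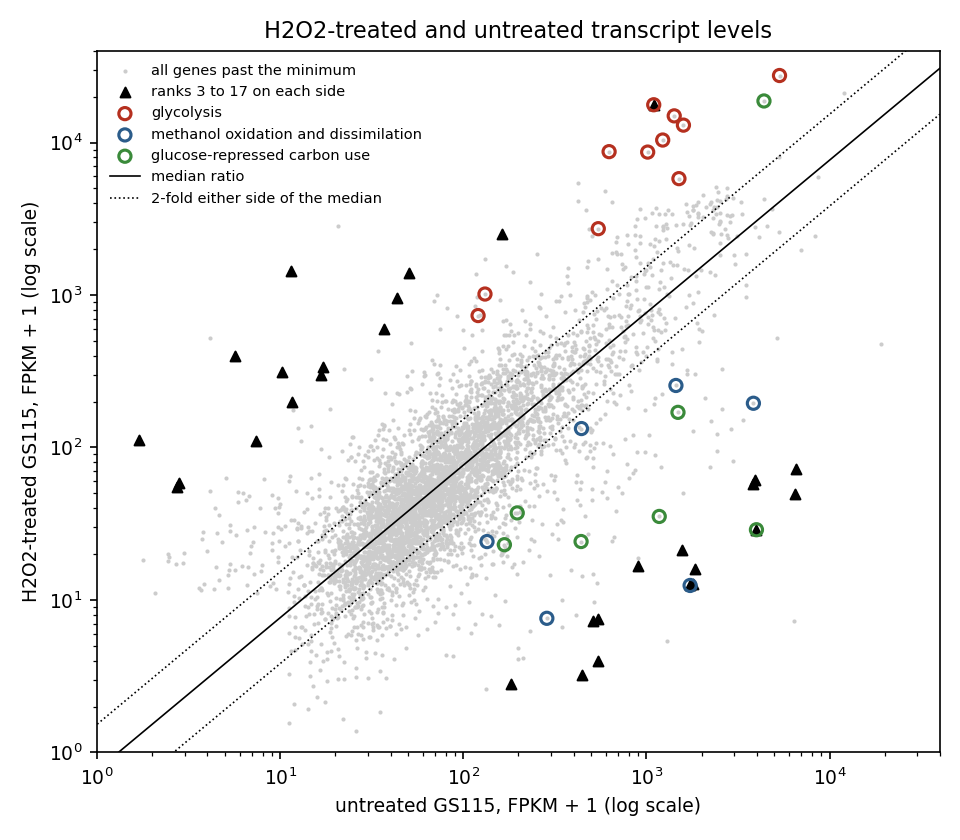
FPKM plus 1 in H2O2-treated GS115 (vertical axis) against untreated GS115 (horizontal axis), both on log scales, for the 4964 genes past the minimum (grey points), with 1 library a side. Black triangles are the genes of rank 3 to 17 on each side and open circles the members of 3 lists; the solid line is the median ratio and the dotted lines lie 2-fold either side of it. The 11 genes of the glycolysis list all lie above the upper dotted line and the 6 methanol oxidation genes all lie below the lower one.

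On FPKM as deposited, without centring, more genes were high in the untreated library and low after H2O2 than the reverse. The median gene's log2 ratio of -0.38 tilts such counts downward. After H2O2, 25 genes stood below 10 FPKM that had 100 FPKM or more in the untreated library. In the opposite direction, 6 genes reached 100 FPKM or more after H2O2 from below 10 FPKM untreated. Among genes at 1000 FPKM or more in the untreated library (194 genes), 18 were below 100 FPKM after H2O2. Of the 187 genes at 1000 FPKM or more after H2O2, 4 had been below 100 FPKM untreated. The lists of the 20 most abundant genes in each library shared 5 genes, and those of the 100 most abundant shared 57.

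Genes were ordered by the centred ratio, and those of rank 3 to 17 on each side are described. The members set aside on the higher side were PAS_chr2-1_0016 at 7.49 and PAS_chr3_1145 at 7.37, and those on the lower side PAS_chr3_0440 at -9.41 and PAS_chr1-1_0108 at -7.52. The next genes beyond rank 17 were PAS_chr2-2_0223 at 4.28 and PAS_chr2-2_0113 at -5.36, close to the 4.29 and -5.37 of the last genes within. Of these 30 genes 4 carry a name given here from knowledge of the locus tag (GPM1, FDH1, GTH1 and MIT1). The other 26 are identified by locus tag alone, for lack of a table of products.

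On the lower side, PAS_chr4_0828 led at 11.8 FPKM after H2O2, against 1800 FPKM untreated, a centred log2 ratio of -6.75. FDH1 (PAS_chr3_0932), formate dehydrogenase, the last step of methanol dissimilation to carbon dioxide, stood at 11.45 FPKM (281 fragments) after H2O2, against 1731 FPKM (29191 fragments) untreated. That is 151-fold lower before centring (95% counting interval 134 to 171), or -6.74 centred. In the hmt-deficient library FDH1 was at 10054 FPKM, above both.

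GTH1 (PAS_chr1-3_0011), a high-affinity glucose transporter, stood at 27.9 FPKM after H2O2, against 3987 FPKM untreated, 143-fold lower before centring (134.5 to 152.2). MIT1 (PAS_chr3_0836), a transcriptional activator of methanol genes, stood at 2.21 FPKM (132 fragments) after H2O2, against 441 FPKM (18079 fragments) untreated. It was 199-fold lower before centring (168 to 238). Both had a centred ratio near that of FDH1, at -6.73 for GTH1 and -6.72 for MIT1. The hmt-deficient library separated them, with GTH1 at 78.5 FPKM, far nearer its level after H2O2 than untreated, and MIT1 at 389 FPKM, close to untreated.

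PAS_chr3_0023 was nearly silent after H2O2, at 2.95 FPKM against 546 FPKM untreated (-6.73). Several of the most abundant untreated transcripts were in the same range of change. PAS_chr2-2_0208 stood at 70.8 FPKM after H2O2, against 6544 FPKM untreated (-6.13). PAS_chr1-4_0481, with a coding length of only 279 bp, stood at 48.9 FPKM after H2O2, against 6445 FPKM untreated (-6.63). PAS_chr2-2_0403, also short at 369 bp, stood at 15.03 FPKM after H2O2, against 1842 FPKM untreated (-6.46). These 3 genes kept between 0.759% and 1.08% of their untreated FPKM.

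PAS_chr3_0030 stood at 60.3 FPKM after H2O2, against 3893 FPKM untreated (-5.61), and PAS_chr4_0972 at 56.7 FPKM, against 3799 FPKM (-5.66). PAS_chr2-2_0267 stood at 20.1 FPKM after H2O2, against 1558 FPKM untreated (-5.82). Both PAS_chr3_0030 and PAS_chr4_0972 were thus among the strong untreated transcripts and still above 50 FPKM after H2O2.

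The other members of the lower side were all below 1000 FPKM untreated. PAS_chr3_0348 stood at 6.55 FPKM after H2O2, against 542 FPKM untreated (-5.79), and PAS_chr2-1_0249 at 6.33 FPKM, against 510 FPKM (-5.74). PAS_chr1-4_0612 stood at 1.83 FPKM after H2O2, against 182 FPKM untreated (-5.63), and PAS_chr3_0505 at 15.7 FPKM, against 897 FPKM (-5.37). Over the 15 genes the treated levels ran from 1.83 to 70.8 FPKM (median 15.03), against 182 to 6544 FPKM untreated (median 1731). The ranges did not overlap. Of the 15, 13 stood at 500 FPKM or more untreated, and 9 were under 20 FPKM after H2O2. The genes were ranked on these same levels, so nothing is read from the separation or the counts.

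On the higher side, PAS_chr4_0008 led at 1435 FPKM after H2O2, against 10.4 FPKM untreated (7.36). It was 138-fold higher before centring (122 to 157), and stood at 115 FPKM in the hmt-deficient library. PAS_chr3_0403 stood at 398 FPKM after H2O2, against 4.68 FPKM untreated (6.52). In the hmt-deficient library it was at 391 FPKM, about its level after H2O2.

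PAS_FragB_0069, the outermost gene listed at an end of chromosome 1 in the RefSeq order, stood at 111 FPKM after H2O2, against 0.70 FPKM untreated (6.42). Only about 6 untreated fragments lie behind that value, against about 1493 after H2O2. The untreated FPKM did not give a whole number at the listed coding length, so the 6 is rounded. The ratio of these rounded fragments, scaled by the library totals, was 171, with a counting interval of 78.4 to 467. That interval was the widest of the 30 genes. As deposited, the treated FPKM was 15818% of the untreated, so the 171 and its interval are approximate. PAS_chr2-2_0065 stood at 1386 FPKM after H2O2, against 49.3 FPKM untreated (5.17), and PAS_chr3_0225 at 960 FPKM, against 42.4 FPKM (4.85). Those last genes rest on 1070 and 960 untreated fragments, and their intervals are narrow, from 26.5 to 29.9 and from 21.2 to 24.2 times.

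GPM1 (PAS_chr3_0826), the glycolytic phosphoglycerate mutase, was the one abundant untreated transcript of this side, at 17695 FPKM after H2O2, against 1095 FPKM untreated (4.40; 16.2-fold before centring, 15.9 to 16.5). PAS_chr4_0181 reached 2515 FPKM after H2O2, against 161 FPKM untreated (4.34). PAS_chr3_0982 stood at 599 FPKM after H2O2, against 35.8 FPKM untreated (4.41). PAS_chr3_0288, a short gene of 288 bp, stood at 198 FPKM after H2O2, against 10.6 FPKM untreated (4.48), and at 18.8 FPKM in the hmt-deficient library.

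The other genes of this side were below 20 FPKM untreated. PAS_chr4_0914 stood at 312 FPKM after H2O2, against 9.25 FPKM untreated (5.32), and PAS_chr1-1_0103 at 334 FPKM, against 16.2 FPKM (4.67). PAS_chr4_0851 stood at 297 FPKM after H2O2, against 15.6 FPKM untreated (4.55), and PAS_FragB_0039 at 109 FPKM, against 6.35 FPKM (4.29). The weakest after H2O2 were PAS_chr1-3_0278 at 57.9 FPKM, against 1.79 FPKM untreated (4.79), and PAS_chr3_0017 at 54.0 FPKM, against 1.72 FPKM (4.72). Those untreated values rest on 13 and 20 fragments. Over the 15 genes the treated levels ran from 54.0 to 17695 FPKM (median 334), against 0.70 to 1095 FPKM untreated (median 10.6), and the ranges overlapped. Of the 15, 10 were under 20 FPKM untreated. The 15 higher genes took 2.47% of the summed FPKM after H2O2, against 0.143% untreated, and the 15 lower genes took 0.0335% after H2O2, against 3.41% untreated. These shares follow from how the genes were chosen, and so, largely, do the levels and counts of each side. The hmt-deficient level lay between the other levels for 14 of 15 genes on each side, beside 41.4% of all genes past the minimum; genes chosen for a wide gap leave more room between, so nothing is read from this count. The exceptions were PAS_FragB_0069 and FDH1, above both.

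**Figure D2:**
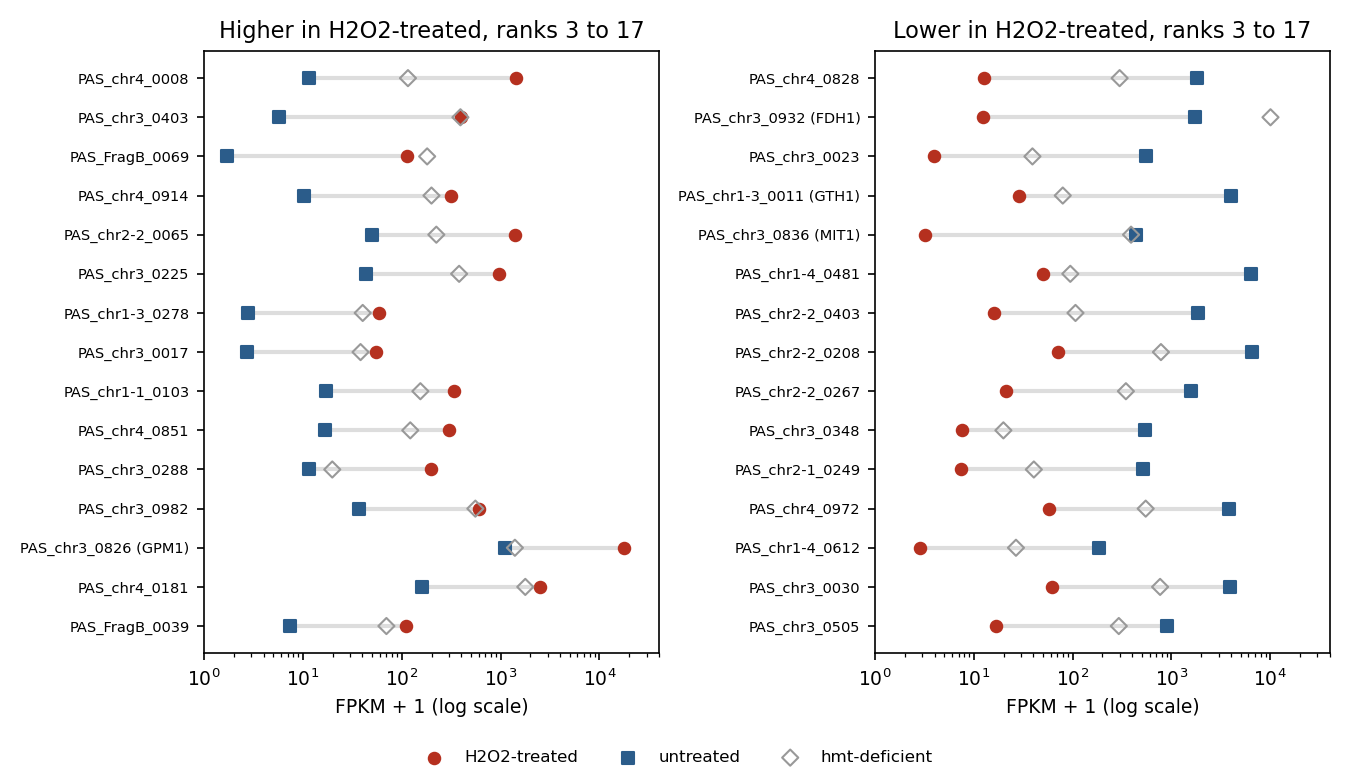
FPKM plus 1 on a log scale for the genes of rank 3 to 17, higher (left panel) and lower (right panel) after H2O2, in rank order from the top. Red circles are H2O2-treated, blue squares untreated and grey diamonds hmt-deficient GS115, 1 library each; most diamonds lie between the circle and the square, and FDH1 is the one lower gene with its diamond beyond both.

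The glycolysis list includes PDC1, which acts on pyruvate after glycolysis, and holds no hexokinase or glucokinase. Every gene of the list was higher. All 11 stood 4-fold or more above the median gene, against 4.09% of all genes, with a median of 3.41 and a range of 2.33 to 4.40. Of the upper steps, PGI1 (PAS_chr3_0456), glucose-6-phosphate isomerase, stood at 2722 FPKM after H2O2, against 545 FPKM untreated (2.70). The phosphofructokinase subunits were PFK1 (PAS_chr2-1_0402) at 1014 FPKM, against 130 FPKM untreated (3.34), and PFK2 (PAS_chr1-4_0047) at 732 FPKM, against 119 FPKM (2.99). FBA1-1 (PAS_chr1-1_0072), fructose-bisphosphate aldolase, stood at 13008 FPKM after H2O2, against 1591 FPKM untreated (3.41), and TPI1 (PAS_chr3_0951), triosephosphate isomerase, at 5797 FPKM, against 1504 FPKM (2.33). TPI1 had the smallest ratio of the list.

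TDH3 (PAS_chr2-1_0437), glyceraldehyde-3-phosphate dehydrogenase, was the most abundant transcript after H2O2, at 27518 FPKM, against 5330 FPKM untreated (2.75), where it ranked 9. PGK1 (PAS_chr1-4_0292), phosphoglycerate kinase, stood at 10386 FPKM after H2O2, against 1226 FPKM untreated (3.47). ENO1 (PAS_chr3_0082), enolase, stood at 14962 FPKM after H2O2, against 1417 FPKM untreated (3.78). CDC19 (PAS_chr2-1_0769), pyruvate kinase, stood at 8715 FPKM after H2O2, against 624 FPKM untreated (4.19), and PDC1 (PAS_chr3_0188), pyruvate decarboxylase, at 8659 FPKM, against 1015 FPKM (3.48).

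The 11 genes together took 10.4% of the summed FPKM after H2O2, against 1.43% untreated, a 7.25-fold larger share. In the hmt-deficient library they took 1.83%. Of the 20 most abundant transcripts 8 were of the glycolysis list after H2O2, PDC1 among them, against 1 of 20 untreated. ADH2 (PAS_chr2-1_0472), an alcohol dehydrogenase that interconverts acetaldehyde and ethanol next to pyruvate decarboxylase, stood at 18736 FPKM after H2O2, against 4383 FPKM untreated (2.48).

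ADH2 was listed with glucose-repressed carbon use and was its one higher member. The other 6 were each at least 4-fold lower, against 4.65% of all genes, and the list's median was -2.74. GUT1 (PAS_chr4_0783), glycerol kinase, stood at 34.3 FPKM after H2O2, against 1173 FPKM untreated (-4.67), and GUT2 (PAS_chr3_0579), the mitochondrial glycerol-3-phosphate dehydrogenase, at 169 FPKM, against 1486 FPKM (-2.74). PCK1 (PAS_FragB_0061), phosphoenolpyruvate carboxykinase of gluconeogenesis, stood at 23.2 FPKM after H2O2, against 439 FPKM untreated (-3.80). Of the glyoxylate cycle, isocitrate lyase ICL1 (PAS_chr1-4_0338) stood at 22.04 FPKM after H2O2, against 167 FPKM untreated (-2.48), and malate synthase MLS1 (PAS_chr4_0191) at 36.2 FPKM, against 196 FPKM (-2.02). With GTH1, these 6 genes summed to 313 FPKM after H2O2, against 7447 FPKM untreated.

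Among methanol genes, all 6 for oxidation and dissimilation were at least 2-fold lower, against 15% of all genes, with a median of -3.02. AOX1 (PAS_chr4_0821), the main alcohol oxidase, stood at 6.58 FPKM after H2O2, against 285 FPKM untreated (-4.85), and AOX2 (PAS_chr4_0152), the minor one, at 23.2 FPKM, against 134 FPKM (-2.09). The order of the alcohol oxidases was therefore opposite in the libraries: AOX1 had 0.284 times the FPKM of AOX2 after H2O2, against 2.13 times untreated. The sequences of AOX1 and AOX2 are closely alike, as are those of DAS1 (PAS_chr3_0832) and DAS2 (PAS_chr3_0834), and the sources used here do not say how the authors divided shared fragments. FLD1 (PAS_chr3_1028), formaldehyde dehydrogenase, stood at 254 FPKM after H2O2, against 1448 FPKM untreated (-2.12), and FGH1 (PAS_chr3_0867), S-formylglutathione hydrolase, at 132 FPKM, against 441 FPKM (-1.35). Within dissimilation the last enzyme, FDH1, thus had a far lower ratio than the enzymes before it.

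Formaldehyde assimilation was less uniform, with 5 of 8 members past 2-fold downward, beside 15% of all genes, 1 upward, beside 15.5%, and a median of -1.31. DAS2, a dihydroxyacetone synthase, stood at 15.3 FPKM after H2O2, against 107 FPKM untreated (-2.34). DAS1, its near copy, was just short of 2-fold at 36.1 FPKM, against 95.6 FPKM (-0.995; 2.65-fold lower before centring). DAK2 (PAS_chr3_0841), dihydroxyacetone kinase, was at the median gene, at 357 FPKM after H2O2, against 473 FPKM untreated (-0.02). SHB17 (PAS_chr2-2_0177), sedoheptulose-1,7-bisphosphatase, was the one higher member, at 824 FPKM after H2O2, against 261 FPKM untreated (2.04). FBP1 (PAS_chr3_0868), fructose-1,6-bisphosphatase, which acts against phosphofructokinase, stood at 110 FPKM after H2O2, against 353 FPKM untreated (-1.29).

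Paired isoforms of the sugar phosphate enzymes differed in their ratios for aldolase and transaldolase, and were alike for ribose-5-phosphate isomerase. FBA1-2 (PAS_chr1-1_0319), the aldolase assigned to the methanol pathway, stood at 11.5 FPKM after H2O2, against 40.5 FPKM untreated (-1.34), while glycolytic FBA1-1 was higher, so that FBA1-1 exceeded FBA1-2 by 1127 times after H2O2, against 39.3 times untreated. TAL1-2 (PAS_chr2-2_0338), the methanol-pathway transaldolase, stood at 6.97 FPKM after H2O2, against 45.9 FPKM untreated (-2.17), and its neighbour on chromosome 2, TAL1-1 (PAS_chr2-2_0337) of the pentose phosphate pathway, at 1572 FPKM, against 1471 FPKM (0.48). The adjacent ribose-5-phosphate isomerase genes were both lower. RKI1-2 (PAS_chr4_0212) was at 21.1 FPKM, against 93.3 FPKM untreated (-1.71), and RKI1-1 (PAS_chr4_0213) at 21.9 FPKM, against 110 FPKM (-1.89). In the hmt-deficient library RKI1-2 and RKI1-1 were at 92.7 and 92.9 FPKM. Whether these genes share fragments was not tested.

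All 3 activators of methanol genes were at least 2-fold lower, beside 15% of all genes. Beside MIT1, MXR1 (PAS_chr4_0487) stood at 16.7 FPKM after H2O2, against 163 FPKM untreated (-2.83), and TRM1 (PAS_chr4_0203) at 23.4 FPKM, against 68.3 FPKM (-1.12). MIT1 lies next to DAS2 on chromosome 3, 7 places from GPM1 in the RefSeq gene order. Over the 13 genes from GPM1 to DAK2 there, 1 passed 2-fold upward, beside 15.5% of all genes, and 4 downward, beside 15%, and the median was -0.02.

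**Figure D3:**
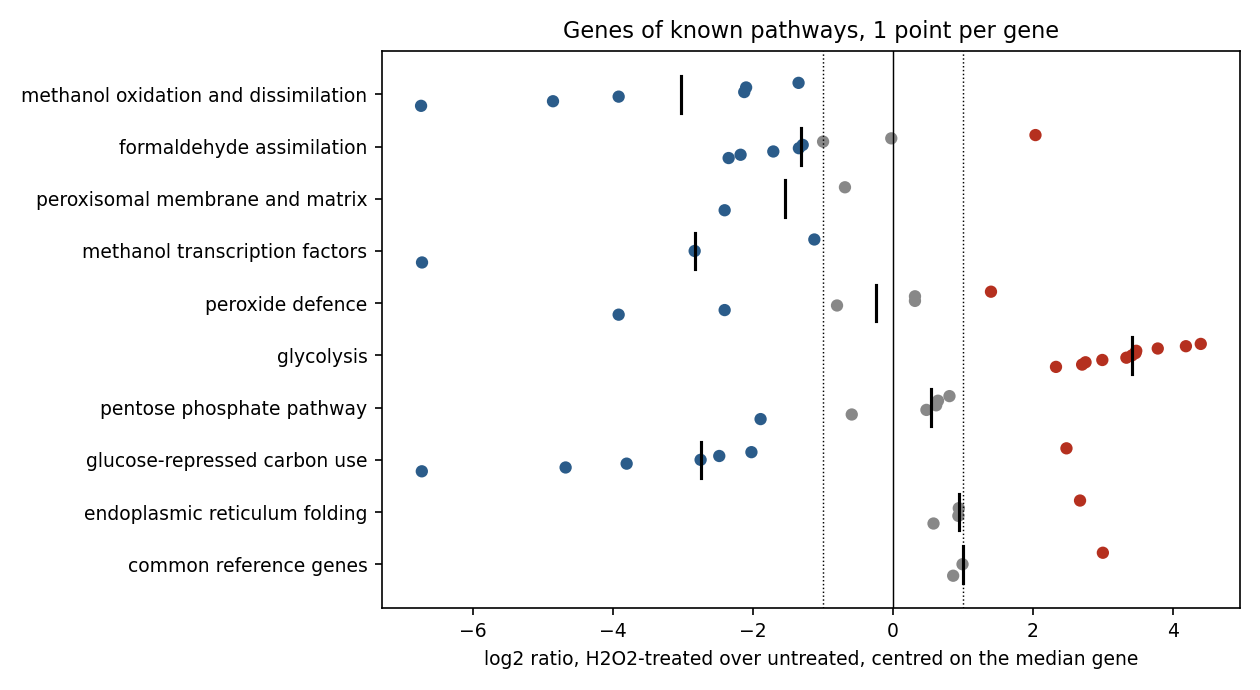
Centred log2 ratio of H2O2-treated over untreated GS115 (horizontal axis) for each gene of 10 lists (rows), 1 point per gene and 1 library a side. Red points are at least 2-fold higher, blue points at least 2-fold lower and grey points neither; vertical bars are list medians and dotted lines mark 2-fold. All glycolytic points lie to the right of 2, and all points of methanol oxidation and of the methanol transcription factors lie to the left of -1.

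Of 6 listed peroxide defence genes 1 passed 2-fold upward, beside 15.5% of all genes, and 2 downward, beside 15%, around a median of -0.24. The list covers peroxide defence only in part. Its only catalase and only peroxiredoxin are peroxisomal, and it holds no thioredoxin or superoxide dismutase. GLR1 (PAS_chr3_1011), glutathione reductase, was the higher one, at 410 FPKM after H2O2, against 202 FPKM untreated (1.40; 2.03-fold before centring, 1.96 to 2.10). CTA1 (PAS_chr2-2_0131), peroxisomal catalase, stood at 194 FPKM after H2O2, against 3838 FPKM untreated (-3.91; 19.8-fold lower before centring, 19.3 to 20.3). PMP20 (PAS_chr1-4_0547), a peroxisomal peroxiredoxin, stood at 19.97 FPKM after H2O2, against 144 FPKM untreated (-2.40). Both lower members act in peroxisomes and belong with the methanol genes as well.

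GSH1 (PAS_chr1-1_0184), glutamate-cysteine ligase, which starts glutathione synthesis, stood at 73.6 FPKM after H2O2, against 77.1 FPKM untreated (0.32). GPX1 (PAS_chr2-2_0382), glutathione peroxidase, stood at 618 FPKM after H2O2, against 647 FPKM untreated (0.32). YAP1 (PAS_chr4_0601), whose protein is activated by cysteine oxidation in Saccharomyces cerevisiae, stood at 144 FPKM after H2O2, against 328 FPKM untreated (-0.80). These 3 were within 2-fold of the median gene, though YAP1 was 2.28-fold lower before centring.

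The pentose phosphate pathway, a main source of NADPH for glutathione reduction, stayed within 2-fold of the median gene for 5 of 6 members. RKI1-1, the exception, was lower, beside 15% of all genes. ZWF1 (PAS_chr2-1_0308), glucose-6-phosphate dehydrogenase, its entry step, stood at 379 FPKM after H2O2, against 744 FPKM untreated (-0.59). GND2 (PAS_chr3_0277), 6-phosphogluconate dehydrogenase, stood at 2935 FPKM, against 2494 FPKM (0.62), SOL3 (PAS_chr3_1126), the lactonase between them, at 346 FPKM, against 258 FPKM (0.81), and TKL1 (PAS_chr1-4_0150), transketolase, at 569 FPKM, against 475 FPKM (0.65). The 6 genes took 0.544% of the summed FPKM after H2O2, against 0.545% untreated.

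Of 4 genes for protein folding in the endoplasmic reticulum, ERO1 (PAS_chr1-1_0011), the thiol oxidase that drives disulfide formation, was the one past 2-fold (upward, beside 15.5% of all genes), at 546 FPKM after H2O2, against 111 FPKM untreated (2.67; 4.92-fold before centring, 4.73 to 5.13). KAR2 (PAS_chr2-1_0140), the luminal Hsp70, stood at 545 FPKM after H2O2, against 371 FPKM untreated (0.94), and PDI1 (PAS_chr4_0844), protein disulfide isomerase, at 825 FPKM, against 560 FPKM (0.94). HAC1 (PAS_chr1-1_0381), the transcription factor of the unfolded protein response, stood at 199 FPKM after H2O2, against 174 FPKM untreated (0.58). HAC1 acts after splicing of its mRNA, which gene totals do not show.

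PMP47 (PAS_chr3_1139), a peroxisomal membrane carrier, stood at 41.7 FPKM after H2O2, against 88.4 FPKM untreated (-0.68; 2.12-fold lower before centring). Of genes often used as references, ACT1 (PAS_chr3_1169), actin, stood at 2037 FPKM after H2O2, against 1463 FPKM untreated (0.86), and TEF1 (PAS_FragB_0052), translation elongation factor 1 alpha, at 8064 FPKM, against 5278 FPKM (0.996). Both were above the median gene, and remained above 1 as uncentred FPKM ratios, at 1.39 and 1.53. HIS4 (PAS_chr1-4_0160), a histidine biosynthesis gene that is mutated in GS115, stood at 318 FPKM after H2O2, against 51.1 FPKM untreated (6.23-fold before centring, 5.95 to 6.53), and at 420 FPKM in the hmt-deficient library.

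**Figure D4:**
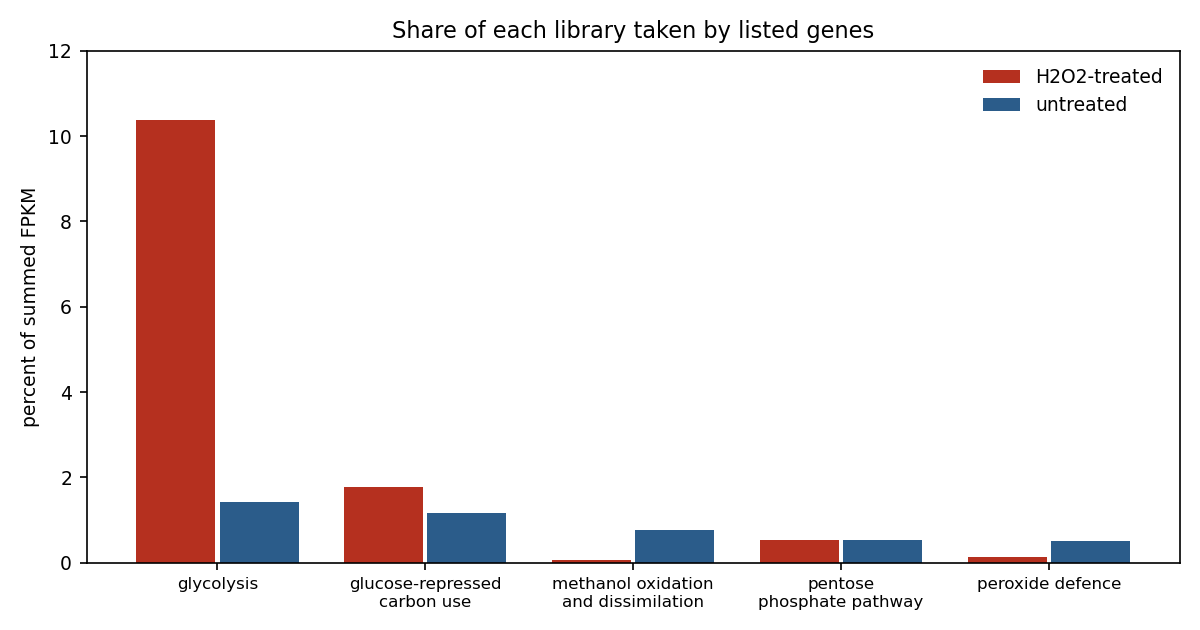
Percent of summed FPKM taken by the members of 5 lists (bars, from 0) in H2O2-treated (red, left) and untreated (blue, right) GS115, 1 library each. Glycolysis takes 10.4% after H2O2, against 1.43% untreated, and methanol oxidation and dissimilation 0.0580% against 0.773%; glucose-repressed carbon use holds ADH2, which makes up most of its treated share.

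The 100 highest and 100 lowest genes were then described together. The ranking fixes that their levels differ: the 100 highest had a median of 313 FPKM after H2O2, against 31.7 FPKM untreated, and the 100 lowest 17.4 FPKM, against 492 FPKM. The ranking did not use coding length or place on the chromosome. Coding length was near that of all genes past the minimum (median 1199 bp), at 1101 bp for the highest and 1148 bp for the lowest. Few genes of either set lay side by side, and for the highest the share was close to that of other genes. An adjacent gene belonged to the same set for 10 of the 100 lowest and 5 of the 100 highest, beside 3.72% of the genes outside each set. Within 20 genes of a chromosome end lay 12 of the 100 highest, beside 2.80% of other genes, and 6 of the 100 lowest, beside 2.92%.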

How the data were processed

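FPKM values per gene were used as deposited by the authors; the unit is stated per the file headers. Tools listed in the submitters' processing notes, without their roles, are FastQC 0.12.1, HISAT2, HTSeq, Trimmomatic 0.39 and featureCounts. The sources used here state neither a genome build nor an annotation. The H2O2-treated values were the same in both deposited tables that hold them for all 5040 genes, and so was the column headed as normalized. Coding length and gene order came from RefSeq (assembly ASM2700v1), which lists all 5040 locus tags.

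Fragments were recovered as the library total that made FPKM times coding length whole. The fitted totals were 22355534 fragments in the H2O2-treated and 15358144 in the untreated library. Of 1132 and 3557 genes that could be checked, 96.2% and 96.8% came within 0.1 of a whole fragment. Values that were not whole were rounded. Summed over genes, the recovered fragments were 23040439 after H2O2, above the fitted total, and 15246942 untreated. The excess after H2O2 was not explained, so fragment counts that could not be checked are approximate. At the median coding length 10 FPKM is 268 and 184 fragments. Ratio intervals are Clopper-Pearson intervals (scipy 1.17.1).

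Gene names come from knowledge of the locus tags and were not checked against a table. The 54 genes in 10 lists, and the rule that names ranks 3 to 17 and every listed gene, were chosen with earlier results of these data known. The calculations were tested on simulated data built with the same coding lengths. That test therefore does not bear on the unexplained excess of fragments after H2O2. Ratios used Python 3.11.15, numpy 2.4.6 and pandas 2.3.3. Alternatives varied the pseudocount, minimum, centring and scaling.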

Additional observations from a re-analysis of the deposited data

How the results depend on the processing

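No paired analysis was possible because each condition has 1 library. With 1 library a side, no alternative bears on the spread between cultures. Of 360 values recomputed under other settings, 275 lay within 1.5 times the reported count or within 0.1 of the reported log2 value. The other 85 lay further off, and 0 of the values past 2-fold changed sign. Most of those values were too large for these settings to reverse, so the lack of sign changes is no check. Without centring, 441 genes passed 2-fold upward and 1283 downward, and 129 passed 4-fold upward and 342 downward. By construction it shifted every list median. The medians became 3.03 for glycolysis, -3.13 for glucose-repressed carbon use, -3.40 for methanol oxidation and dissimilation and -1.70 for formaldehyde assimilation. They became -1.93 for the peroxisomal pair, -3.21 for the methanol transcription factors, -0.62 for peroxide defence and 0.17 for the pentose phosphate pathway. For endoplasmic reticulum folding the median became 0.56, and for the reference list, HIS4 included, 0.61. A pseudocount of 5 FPKM, which by construction shrinks low genes, gave medians of -1.19 for formaldehyde assimilation, -1.43 for the peroxisomal pair and -2.60 for the methanol transcription factors. A minimum of 50 FPKM gave -1.21 for formaldehyde assimilation, with fewer genes. Under every alternative at least 12 of the 15 higher and 14 of the 15 lower genes stayed within the first 17 of their side. Settings that only moved the centre could not change the ranks. The depth limits PAS_FragB_0069 most, with about 6 untreated fragments.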
